A study of Rattus norvegicus with 3 samples.

Results

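Transcripts of 7 organic ion transporters of the renal proximal tubule were described in kidney RNA of 3 rat strains. The genes were *Slc22a2*, *Slc22a6*, *Slc22a7*, *Slc22a8*, *Slc22a12*, *Slc17a1* and *Slc17a3*, listed by name, and their records were looked up in the gene name column of each table. That column gave 6 of the 7 among 33194 records. The seventh, *Slc17a3*, stands in the tables as E9PTR8_RAT, and the RefSeq protein accession in its description belongs to *Slc17a3* in the RefSeq gene table. All 7 were measured, with a mean of at least 1 FPKM (fragment counts corrected for transcript length and library size), as were 17902 records in all.

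The 3 libraries came from whole kidney of Dahl salt-sensitive rats (Dahl S) at 53 days of age, spontaneously hypertensive rats (SHR) at 55 days and Dahl salt-resistant rats (Dahl R) at 54 days. Dahl S rats become hypertensive on a salt-rich diet, Dahl R rats are their selected counterpart, and SHR become hypertensive without added salt. All had been weaned at 30 days and fed a diet low in salt (0.3%), and ribosomal RNA had been removed before sequencing. There was 1 library per strain, and the labels used here give neither the number nor the sex of the animals in it. Strain, age and animal therefore cannot be told apart, no difference could be set against the spread between animals, and no p-value was possible.

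Organic ion transporters carry drugs, toxins, urate and metabolic waste across the cells of the proximal tubule. OAT1 (*Slc22a6*) and OAT3 (*Slc22a8*) take organic anions from the blood in exchange for dicarboxylates, which the sodium-coupled carrier NaDC3 (*Slc13a3*) returns to the cell. OCT2 (*Slc22a2*) takes up organic cations on the blood side, driven by the membrane potential, and the exchanger MATE1 (*Slc47a1*) passes them on to the urine. On the urinary side URAT1 (*Slc22a12*) exchanges urate for other anions, and the NPT proteins NPT1 (*Slc17a1*) and NPT4 (*Slc17a3*) transport urate and other organic anions.

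The tissue label was checked against marker genes of the nephron. All 24 matched proximal tubule markers were measured, and the phosphate carrier *Slc34a1* stood at 1082 FPKM in Dahl S, 857 in SHR and 1205 in Dahl R. Liver cells use several of the same transporters, and of 6 matched hepatocyte genes 4, *Alb*, *Apob*, *Ttr* and *Serpina1*, averaged under 1 FPKM. Albumin (*Alb*) was listed at 0.121 FPKM in Dahl S, 0.405 in SHR and 0.552 in Dahl R. The other 2 were measured, the P450 gene *Cyp2e1* at 43.3 FPKM in Dahl S, 41.2 in SHR and 45.6 in Dahl R, and the fibrinogen gene *Fgb* at 12.0 (8.67–15.4) in Dahl S, 5.02 (3.51–6.52) in SHR and 7.29 (5.18–9.41) in Dahl R, which was over 2-fold higher in Dahl S than in SHR, with limits apart. Read totals were not stated in the labels used here. Each value carries a deposited lower and upper limit in FPKM, given in parentheses, whose confidence level is not stated. For the 7 genes the upper limit lay above the value by 23.6% to 35.2% of it in Dahl S, by 21.2% to 38.4% in SHR and by 24.4% to 39.3% in Dahl R. These limits describe 1 library each and hold no variation between animals.

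*Slc22a2*, the organic cation transporter OCT2, differed most between the libraries. Its level was 216 FPKM (165–267) in Dahl S, 316 (234–398) in SHR and 475 (350.3–599) in Dahl R. Dahl S was the low library and Dahl R the high one, with limits that did not overlap, while the limits of SHR overlapped those of both. Its record (ENSRNOG00000016625) spans positions 42395675 to 42442847 of chromosome 1 on the minus strand, in the coordinates of the files, whose genome build was not stated in the labels used here.

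The basolateral organic anion exchanger genes *Slc22a6* and *Slc22a8* had their lowest deposited values in SHR. *Slc22a6* stood at 283 FPKM (211–355) in Dahl S, 202 (149.8–255) in SHR and 361 (255–468) in Dahl R. The limits overlapped in every pair, and those of SHR and Dahl R met only at their ends, with an upper limit of 254.76 in SHR and a lower one of 254.71 in Dahl R. *Slc22a8* stood at 136 FPKM (94.4–178) in Dahl S, 95.4 (65.4–126) in SHR and 154 (104–204) in Dahl R, in the same order of libraries and with overlapping limits throughout. The records of these genes are neighbours on the plus strand of chromosome 1, *Slc22a8* (ENSRNOG00000018086) from 211269365 to 211287596 and *Slc22a6* (ENSRNOG00000018215) from 211293947 to 211302392, with 6350 bases and no other record between them. The level of *Slc22a6* was 2.08 times that of *Slc22a8* in Dahl S, 2.12 times in SHR and 2.34 times in Dahl R. *Slc22a7*, which encodes OAT2, a carrier of organic anions and nucleotides that is also found in liver, was the least abundant of the 7. It stood at 24.8 FPKM (17.3–32.4) in Dahl S, 20.8 (14.7–26.9) in SHR and 19.2 (13.4–25.0) in Dahl R, and these limits overlapped in every pair. Its record (ENSRNOG00000018420) lies on chromosome 9 from 9934248 to 9940321.

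*Slc22a12*, *Slc17a1* and *Slc17a3*, named above for the urinary side, also had their lowest deposited values in SHR. *Slc22a12*, for the urate exchanger URAT1 (ENSRNOG00000021108, chromosome 1, 209320812 to 209327918), stood at 359 FPKM (233–486) in Dahl S, 266 (163–368) in SHR and 374 (227–520.4) in Dahl R. *Slc17a1* (ENSRNOG00000042692, chromosome 17, 48340442 to 48348367) stood at 60.8 FPKM (41.2–80.4) in Dahl S, 35.7 (24.1–47.3) in SHR and 52.2 (35.7–68.8) in Dahl R. The *Slc17a3* record (ENSRNOG00000032745, chromosome 17, 48605005 to 48620788, plus strand) stood at 69.4 FPKM (52.7–86.1) in Dahl S, 57.8 (45.5–70.1) in SHR and 72.9 (55.1–90.7) in Dahl R. No pair of libraries had limits apart for any of these genes. None of the 7 records overlaps another record of the tables by position. Members of the Slc22a and Slc17a families are related in sequence, and the labels used here do not say how reads that match several genes were assigned.

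**Figure D1:**
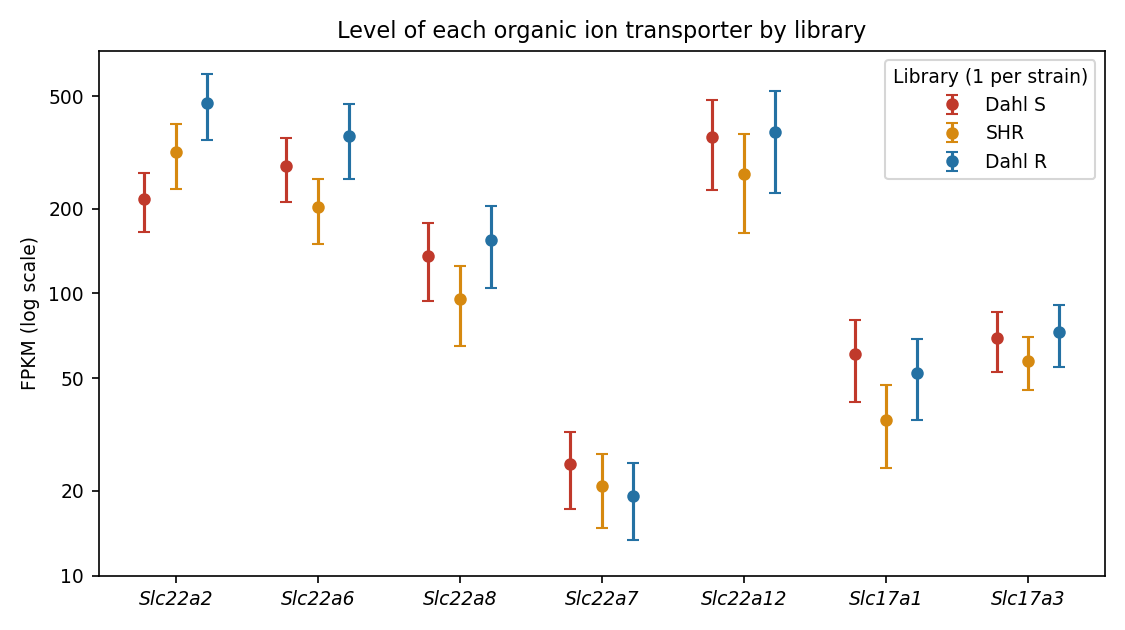
FPKM (log scale) of each transporter gene in the Dahl S, SHR and Dahl R libraries, 1 library per strain; points are the deposited values and bars run to the deposited limits. *Slc22a2* is the gene with bars apart, between 216 FPKM for Dahl S and 475 FPKM for Dahl R, and *Slc22a7* is the lowest of the 7 in all 3 libraries.

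Because *Slc22a2* changed place, the order of the genes differed between the libraries. In Dahl S the order from high to low was *Slc22a12*, *Slc22a6*, *Slc22a2*, *Slc22a8*, *Slc17a3*, *Slc17a1* and *Slc22a7*. In SHR and in Dahl R *Slc22a2* came first and the other genes followed in the order they had in Dahl S. Neighbours in these orders had overlapping limits except *Slc22a8* and *Slc17a3* in Dahl S and Dahl R, *Slc17a1* and *Slc22a7* in the same libraries, and *Slc22a6* and *Slc22a8* in SHR and Dahl R. *Slc22a2* made up 18.8% of the summed FPKM of the 7 genes in Dahl S, 31.8% in SHR and 31.5% in Dahl R. *Slc22a12* made up 31.2% in Dahl S, 26.7% in SHR and 24.8% in Dahl R, and *Slc22a6* made up 24.6%, 20.4% and 24.0% in the same libraries. The level of *Slc22a2* was 0.762 times that of *Slc22a6* in Dahl S, 1.56 times in SHR and 1.31 times in Dahl R. The 7 genes together came to 1150 FPKM in Dahl S, 994 in SHR and 1508 in Dahl R, or 934, 678 and 1033 FPKM without *Slc22a2*.

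**Figure D2:**
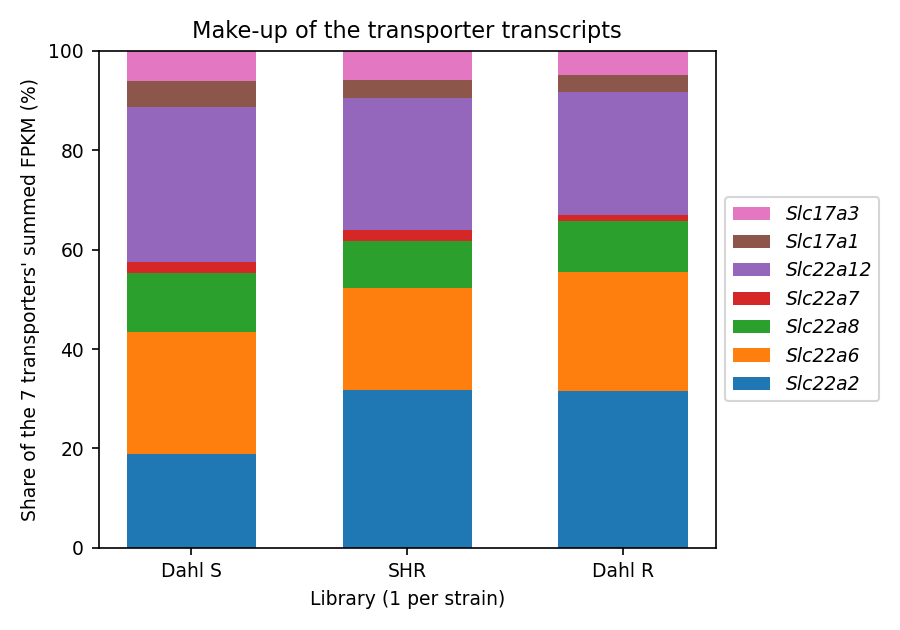
Share of each gene in the summed FPKM of the 7 transporters (percent) in the Dahl S, SHR and Dahl R libraries, 1 library per strain, with no error shown. *Slc22a2*, at the foot of each bar, takes 18.8% in Dahl S, 31.8% in SHR and 31.5% in Dahl R.

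The windows around the transcription starts are shown for the gene that stood apart, *Slc22a2*, and for the genes whose windows held a searched motif, *Slc22a8* and *Slc17a3*. They hold 300 bases around the start, come from the RefSeq promoter table of the GRCr8 assembly, and are written 5′ to 3′ on the gene's strand with motif matches in capitals. The table held windows of 6 of the 7 genes, without *Slc22a6*. The *Slc22a2* window lies at chr1:50710970-50711269 (minus strand), the *Slc22a8* window at chr1:214927034-214927333 (plus strand) and the *Slc17a3* window at chr17:41723060-41723359 (minus strand). GRCr8 positions cannot be set against those of the files. *Slc17a3* lies on the minus strand in GRCr8 and its record on the plus strand in the files, while *Slc17a1* lies on the minus strand in both, so the *Slc17a3* record rests on its accession alone.
Slc22a2: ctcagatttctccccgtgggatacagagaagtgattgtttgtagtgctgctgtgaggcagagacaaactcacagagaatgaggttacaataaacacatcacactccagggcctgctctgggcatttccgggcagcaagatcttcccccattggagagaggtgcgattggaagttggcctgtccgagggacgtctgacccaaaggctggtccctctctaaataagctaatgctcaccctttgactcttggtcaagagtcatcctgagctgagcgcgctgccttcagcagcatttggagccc
Slc22a8: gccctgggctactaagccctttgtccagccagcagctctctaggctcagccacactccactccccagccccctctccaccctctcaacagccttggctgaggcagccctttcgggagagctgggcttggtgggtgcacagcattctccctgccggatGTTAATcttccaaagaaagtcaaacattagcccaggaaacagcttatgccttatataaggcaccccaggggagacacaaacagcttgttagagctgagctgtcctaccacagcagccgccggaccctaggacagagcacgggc
Slc17a3: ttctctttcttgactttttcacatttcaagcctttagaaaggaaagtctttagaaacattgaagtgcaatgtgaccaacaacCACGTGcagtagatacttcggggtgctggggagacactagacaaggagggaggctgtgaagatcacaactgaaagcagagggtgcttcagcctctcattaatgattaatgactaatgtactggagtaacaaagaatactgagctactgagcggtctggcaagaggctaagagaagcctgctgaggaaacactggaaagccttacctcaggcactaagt

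For each of 5 short motifs, both strands of the 6 windows and of all 33469 windows of the table were searched, and no matches overlapped. The half-site of HNF1, a factor needed for proximal tubule gene expression, was searched as GTTAAT and was found in *Slc22a8*, 93 bases before the start, and in 7.45% of all windows. The E-box was searched as CACGTG and was found in *Slc17a3*, 168 bases before the start, and in 6.42% of all windows. The steroid receptor half-site AGAACA was in none of the 6 windows and in 20.7% of all windows. The nuclear receptor half-site AGGTCA was in none of the 6 and in 16.2% of all, and the TATA box letters TATAAA in none of the 6 and in 14.2% of all. These matches describe letters in 1 window per gene.

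Between the salt-sensitive and the salt-resistant Dahl strain, *Slc22a2* was lower in Dahl S and the other 6 genes stayed under 2-fold. Calls rest on the log2 of the ratio of FPKM plus 1, which had to reach 1 in size in either direction. By this rule 1 of the 7 genes was called, in the lower direction, against 4.04% of all measured records in either direction and 1.72% in the lower one. *Slc22a2* had a log2 ratio of -1.13, and its level in Dahl S was 0.455 times that in Dahl R, with ratios of the limits from 0.275 to 0.762. It was also the 1 gene of the 7 with limits apart, as were 2.3% of all measured records, and 0.81% of them were both 2-fold lower and apart in limits. A lower ratio than that of *Slc22a2* was seen in 1.42% of measured records. The other 6 log2 ratios ran from -0.35 for *Slc22a6* to 0.35 for *Slc22a7*, with -0.18 for *Slc22a8*, -0.07 for *Slc17a3*, -0.06 for *Slc22a12* and 0.22 for *Slc17a1*. The median of the 7 was -0.07, against 0.04 over all measured records. The limits of these 6 genes do not exclude sizeable differences, since for *Slc22a12* they allow ratios from 0.447 to 2.14.

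A further cation transporter gene near *Slc22a2* and the gene of cation efflux were under 2-fold apart in this pair, although these differences were not tested against that of *Slc22a2*. *Slc22a3* (OCT3), 247309 bases from *Slc22a2*, was low throughout, at 1.7 FPKM (0.948–2.46) in Dahl S, 2.42 (1.53–3.32) in SHR and 1.15 (0.624–1.68) in Dahl R. The exchanger gene *Slc47a1* stood at 63.3 FPKM (45.5–81.0) in Dahl S, 64.9 (48.2–81.7) in SHR and 72.6 (51.7–93.5) in Dahl R. *Slc22a2* thus stood at 3.41 times the level of *Slc47a1* in Dahl S, 4.87 times in SHR and 6.54 times in Dahl R. *Slc22a3* was picked as a neighbour after its values were seen.

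Among genes related to the 7 by function or family, calls between Dahl S and Dahl R are read against the 4.04% of all measured records. None of the 10 other measured Slc22 genes was (median log2 ratio -0.01), and the abundant *Slc22a18* had a ratio of -0.04. None of 4 other Slc17 genes was (median 0.33), with the sialic acid carrier gene *Slc17a5* at -0.44 and *Slc17a2* at -0.10. None of 5 apical efflux genes was (median -0.02), with *Slc47a1* at -0.20 and the efflux pump gene *Abcg2* at -0.45. None of 6 organic anion transporting polypeptide genes was (median -0.13), with *Slco1a6* at -0.32 and *Slco2a1*, for a prostaglandin carrier, at 0.07. None of 9 genes of dicarboxylate supply and urate handling was (median 0.04), with the scaffold gene *Slc9a3r1* at -0.05 and *Slc13a3* at -0.61. All 9 transcription factor genes lay below 0 (median -0.48), and *Bcl6*, a transcriptional repressor, was called at 8.5 FPKM (5.74–11.3) in Dahl S, 12.2 (8.61–15.8) in SHR and 37.5 (26.6–48.5) in Dahl R. Proximal tubule markers had a median of 0.02, with 12 of 24 above 0, and 1 of them was called lower, the gluconeogenic gene *Pck1*, at 90.4 FPKM (63.3–117) in Dahl S, 164 (107–222) in SHR and 324 (194–453) in Dahl R. The nuclear receptor gene *Hnf4a*, a regulator of proximal tubule genes, stood at 119 FPKM (93.6–143) in Dahl S, 132 in SHR and 173 (135–211) in Dahl R, with overlapping limits, and was picked after its value was seen.

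OCT2 is more abundant in the kidney of male than of female rats and is raised by testosterone, so sex-biased genes were set beside it. Of 11 such measured genes other than the 7, 2 were called lower in Dahl S than in Dahl R and 1 was called higher. The share of all measured records called in this pair, in either direction, was 4.04%. The median log2 ratio of the 11 was -0.39, with 7 below 0 and 4 above. The list was not sorted by the direction of sex bias, so its median is no measure of that bias. *Cyp2d1*, a drug-metabolising P450, stood at 18 FPKM (12.2–23.8) in Dahl S, 48.8 (34.6–63.0) in SHR and 57.6 (40.9–74.2) in Dahl R. *Cyp2c11*, a male-specific P450 of rat liver, stood at 0.666 FPKM (0.222–1.11) in Dahl S, 0.949 (0.443–1.45) in SHR and 5.98 (3.8–8.16) in Dahl R. The called gene on the higher side was *Akr1b7*, an aldo-keto reductase, at 2.75 FPKM (1.4–4.1) in Dahl S, 0.596 (0.203–0.989) in SHR and 0.539 (0.145–0.933) in Dahl R. Whether the animals of the libraries differed in sex or hormones was not tested.

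**Figure D3:**
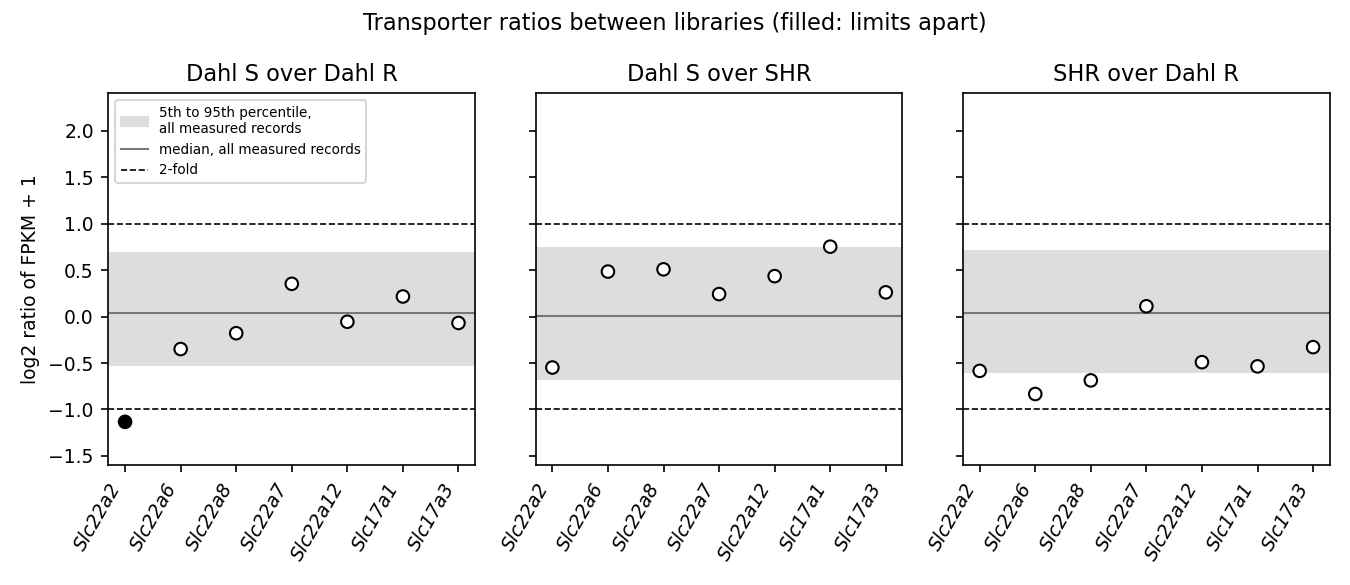
Log2 ratio of FPKM plus 1 for each transporter gene in Dahl S over Dahl R, Dahl S over SHR and SHR over Dahl R; grey bands hold the middle 90% of measured records, dashed lines mark 2-fold, and filled points have limits apart. *Slc22a2* at -1.13 in Dahl S over Dahl R is the filled point and the one past a dashed line.

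The profile of *Slc22a2* over the libraries was compared with those of other records through the Euclidean distance between their 3 log2 values of FPKM plus 1, each centred on its own mean. Among 8851 other named records that averaged 5 FPKM or more and spanned 300 bases or more, 3 lay within a distance of 0.1 and 15 within 0.2. The nearest was *Pkd2l2*, at 3.65 FPKM in Dahl S, 5.69 in SHR and 9.4 in Dahl R (distance 0.036). It was followed by *LOC494499* (distance 0.040), *Rpesp* (0.098), *Sgca* (0.104) and *Gsta2* (0.104). *Gsta2*, a glutathione transferase gene, stood at 215 FPKM in Dahl S, 335 in SHR and 523 in Dahl R. Likeness over 3 values of single libraries is a description.

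In Dahl S compared with SHR, both hypertension-prone strains, no transporter gene was 2-fold apart, against 5.06% of all measured records, and none had limits apart, against 3.92%. All 6 genes other than *Slc22a2* had higher values in Dahl S, and *Slc22a2* had a lower one. After scaling to the median of the proximal tubule markers in this pair (0.60 subtracted), only *Slc17a1* among the 6 was still above 0. *Slc22a8* then stood at -0.09 and *Slc22a6* at -0.12, so their sign depends on whether this scaling is made. Ratios under another form of this scaling would differ and were not computed. The log2 ratio was highest for *Slc17a1* at 0.75, followed by *Slc22a8* at 0.51, *Slc22a6* at 0.48, *Slc22a12* at 0.43, *Slc17a3* at 0.26 and *Slc22a7* at 0.24. *Slc22a2* had a log2 ratio of -0.55, with ratios of the limits from 0.414 to 1.14. The median of the 7 was 0.43, against 0.00 over all measured records. With the proximal tubule scaling that of *Slc22a2* became -1.15, past the 2-fold rule, and the median of the 7 became -0.17.

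Marker genes of the nephron moved with this comparison. The 24 proximal tubule markers had a median log2 ratio of 0.60, with 18 above 0 and 6 below. At least 2-fold higher in Dahl S were 2 of them, against 5.06% of all measured records in either direction. These were *Keg1*, at 28 FPKM (19.7–36.3) in Dahl S and 11.8 (8.17–15.4) in SHR, and the creatine synthesis gene *Gatm*, at 241 (171–310.1) in Dahl S and 113 (80.1–145) in SHR. The summed level of the 24 markers was 10283 FPKM in Dahl S, 9604 in SHR and 11602 in Dahl R. A large part of it was *Kap*, at 3612 FPKM (1478–5746) in Dahl S, 4340 (1296–7383) in SHR and 4734 (1476–7991) in Dahl R. *Kap* had a log2 ratio of -0.26 in Dahl S over SHR, against the direction of the list median. The lowest of the 6 markers below 0 were *Pck1* at -0.86 and *Slc9a3* at -0.76, picked after their values were seen. The 8 measured loop of Henle markers summed to 4941 FPKM in Dahl S, 7089 in SHR and 5640.3 in Dahl R, the 11 principal cell markers to 1047 in Dahl S, 1381 in SHR and 962 in Dahl R, and the 11 intercalated cell markers to 829 in Dahl S, 1136 in SHR and 709 in Dahl R. Their median log2 ratios for Dahl S over SHR were -0.48, -0.32 and -0.41, in the order named, and no measured marker of these lists was listed at 0. Most of the loop of Henle sum was *Umod*, at 4028 FPKM (0–9561) in Dahl S, 5783 (5748–5817) in SHR and 4475 (0–17164) in Dahl R. That sum is thus mainly 1 gene whose lower limit is 0 in Dahl S and Dahl R. The 5 measured red blood cell genes summed to 13024 FPKM in Dahl S, 3192 in SHR and 5444 in Dahl R, and the 7 adipocyte markers to 184 FPKM in Dahl S, 497 in SHR and 134 in Dahl R. *Slc4a1* is counted in both the red blood cell and the intercalated cell lists. It was highest in SHR, at 144 FPKM in Dahl S, 224 in SHR and 115 in Dahl R. In whole kidney, a different mix of cells and a different RNA level per cell cannot be told apart, and the part of these shifts in the transporter values was not tested.

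Of the related genes, the Slc17 family member *Slc17a4*, which adjoins *Slc17a1*, was called higher in Dahl S than in SHR, at 4.33 FPKM (2.46–6.2) in Dahl S, 0.972 (0.431–1.51) in SHR and 2.15 (1.12–3.18) in Dahl R. *Slco2a1* was called lower, at 15 FPKM (11.5–18.5) in Dahl S, 43.7 (35.7–51.7) in SHR and 14.2 (11.0–17.4) in Dahl R, in a locus shared with another record. *Ppara*, the receptor that senses fatty acids, was also called lower, at 4.2 FPKM (2.49–5.91) in Dahl S and 10.4 (7.13–13.7) in SHR, as 1 of 9 transcription factor genes (median log2 ratio -0.15). No other Slc22 gene (10 measured, median 0.09), apical efflux gene (5, median -0.04) or gene of dicarboxylate supply and urate handling (9, median 0.33) was called. Of their more abundant members, *Slc22a18* had a log2 ratio of 0.33, *Slc47a1* -0.04, *Abcg2* 0.15, *Slc9a3r1* 0.27 and *Slc13a3* 0.38. Among the 9 genes of dicarboxylate supply and urate handling, limits were apart for 2, against 3.92% of all measured records. These were *Slc13a1* at 0.96 and *Xdh* at 0.98, both just under the 2-fold rule and picked after their values were seen. Of the 11 sex-biased genes 3 were called higher, *Timd2*, *Cyp2c23* and *Akr1b7*, and *Cyp2d1* was called lower (median log2 ratio 0.20). Calls of these lists are read against the 5.06% of all measured records.

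In SHR compared with Dahl R, a hypertensive strain with a salt-resistant one, none of the 7 genes was 2-fold apart, against 4.4% of all measured records, and none had limits apart, against 3.87%. Values of 6 genes were lower in SHR, and that of *Slc22a7* was slightly higher. The basolateral anion exchangers had the lowest ratios, -0.83 for *Slc22a6* and -0.69 for *Slc22a8*, and *Slc22a2* followed at -0.58. *Slc17a1* had a log2 ratio of -0.54, *Slc22a12* of -0.49, *Slc17a3* of -0.33, which turned to 0.01 with the proximal tubule scaling, and *Slc22a7* of 0.11. The median of the 7 was -0.54, against 0.04 over all measured records, and was -0.20 with the proximal tubule scaling. For *Slc22a6*, the value nearest to the 2-fold rule among those not called, the level in SHR was 0.56 times that in Dahl R, with ratios of the limits from 0.32 to 1.00.

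The dicarboxylate carrier gene *Slc13a3*, whose product supplies the exchange of OAT1 and OAT3, also had its lowest value in SHR. It stood at 169.6 FPKM (132–207) in Dahl S, 130.4 (94.8–166) in SHR and 259 (189–329) in Dahl R, in a locus shared with another record, and it is also counted among the proximal tubule markers. Its log2 ratio in SHR over Dahl R was -0.98, just under the 2-fold rule, with limits apart. None of the 9 genes of dicarboxylate supply and urate handling was called in this pair, and 8 lay below 0 (median -0.32). *Slc9a3r1* had a ratio of -0.32. Limits were apart for 2 of the 9, *Slc13a3* and *Xdh*, against 3.87% of all measured records. *Xdh*, picked after its values were seen, stood at 14.9 FPKM (10.5–19.4) in Dahl S, 7.08 (4.92–9.24) in SHR and 14.3 (10.1–18.5) in Dahl R. Its log2 ratio in SHR over Dahl R was -0.92, also under the 2-fold rule. The proximal tubule markers had a median of -0.33, with 22 of 24 below 0 and *Gatm* called lower at -1.09. Loop of Henle, principal cell and intercalated cell markers had medians of 0.34, 0.53 and 0.71. In this pair too the part of these shifts was not tested. The other marker lists had medians in Dahl S over Dahl R, Dahl S over SHR and SHR over Dahl R, in that order, of -0.04, -0.36 and 0.23 for the distal convoluted tubule, -0.02, -0.04 and 0.22 for podocytes, and 0.03, -0.35 and 0.31 for endothelial cells. Those of macrophages were 0.26, 0.48 and -0.18, and those of fibroblasts 0.77, 0.10 and 0.67.

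Of the other lists, no other Slc22 gene (10 measured, median -0.13), Slc17 gene (4, median -0.17) or apical efflux gene (5, median 0.18) was called in SHR over Dahl R. Among their more abundant members, *Slc22a18* had a log2 ratio of -0.38, *Slc17a5* -0.29, *Slc17a2* -0.04, *Slc47a1* -0.16 and *Abcg2* -0.61. *Slco2a1* was called higher in SHR at 1.56, and *Bcl6* lower at -1.55. Of the 11 sex-biased genes 3 were called lower, *Timd2*, *Cyp2c23* and *Cyp2c11*, and none higher (median -0.56). Calls of these lists are read against the 4.4% of all measured records. *Cyp2c23*, an arachidonic acid epoxygenase of the kidney, stood at 287 FPKM (191–383) in Dahl S, 127 (86.4–168) in SHR and 457 (278–636) in Dahl R. The 3 pairs share libraries with each other, so a low or high value in 1 library enters 2 of them.

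**Figure D4:**
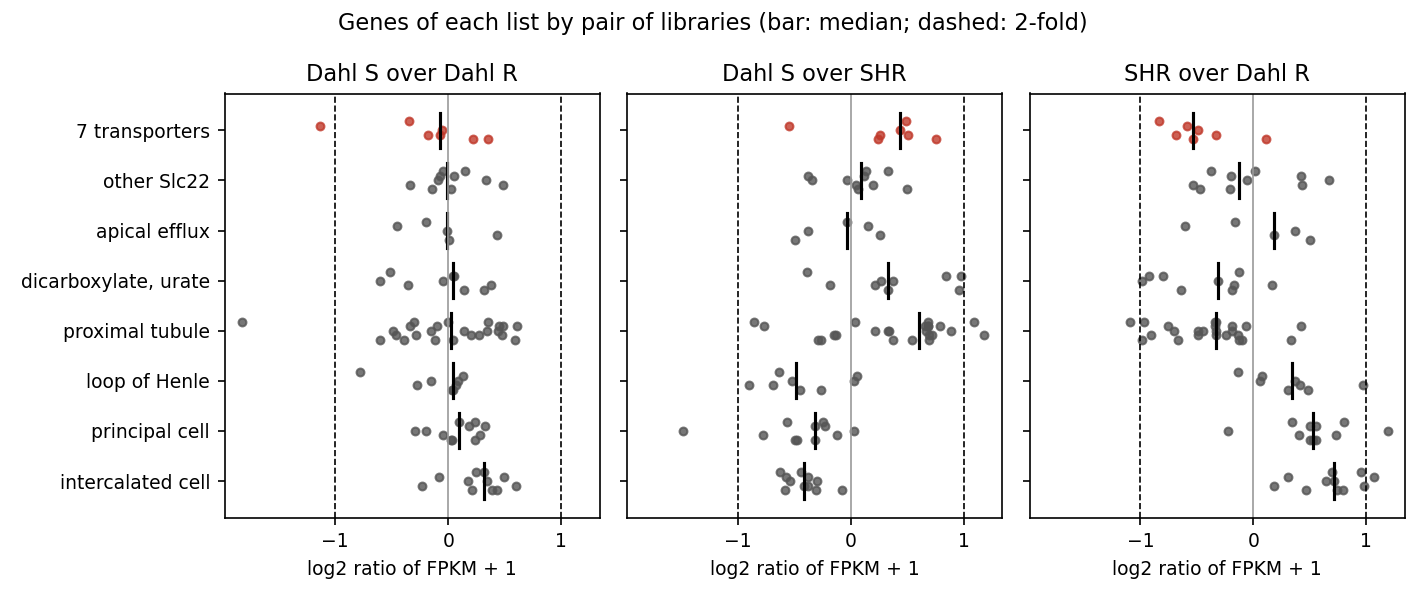
Log2 ratio of FPKM plus 1 of each measured gene of 8 lists in Dahl S over Dahl R, Dahl S over SHR and SHR over Dahl R; points are genes, bars are list medians and dashed lines mark 2-fold. In Dahl S over SHR the medians are 0.43 for the 7 transporters and 0.60 for proximal tubule markers, and -0.48 for loop of Henle, -0.32 for principal cell and -0.41 for intercalated cell markers.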

How the data were processed

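Kidney RNA of 3 rat strains was measured in 1 library each. The deposited values are FPKM with a lower and an upper confidence limit, per the file headers, and the submitters' processing notes list the tools TopHat 1.3.1 and Cufflinks 1.0.3 without their roles. Genome build, annotation, strand use and read totals were not stated in the labels used here. Values were used as deposited, without rescaling. Ratios are log2 of FPKM plus a pseudocount of 1, over records that averaged 1 FPKM or more, and 2-fold was a log2 ratio of at least 1.

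The 7 genes and the 20 gene lists (203 genes, of which 171 matched by name, 3 by RefSeq protein accession and 29 not) were chosen with earlier results of these data known. The text names all 7 genes and, from each list of related genes, those called in a pair, or else the 2 most abundant. Those picked after their values were seen are marked. Some genes that this rule names are not reported here. The record named *Slc22a9* carries the accession of *Slc22a24* in the RefSeq table (GRCr8). Alternatives were other pseudocounts, minimum means and scalings, limits apart, and records summed by locus. Python 3.11.15 with numpy 2.4.6, pandas 2.3.3 and matplotlib 3.10.9 was used.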

Additional observations from a re-analysis of the deposited data

How the results depend on the processing

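Of 189 ratios of single genes recomputed under the alternatives, 188 stayed on their side of the 2-fold rule and 6 changed sign, all with the scaling to the proximal tubule markers. That scaling subtracts the marker median of the pair from every record, 0.02 in Dahl S over Dahl R, 0.60 in Dahl S over SHR and -0.33 in SHR over Dahl R. These medians were taken in each pair on its own and do not add up across pairs. Ratios with 1 factor per library, 1.13 in Dahl S, 0.813 in SHR and 1.08 in Dahl R, would differ and were not computed. With the subtraction the median of the 7 genes was -0.17 in Dahl S over SHR and -0.20 in SHR over Dahl R, and 1 gene, *Slc22a2*, was called in Dahl S over SHR. *Slc22a2* in Dahl S over Dahl R kept its call in every alternative, with log2 ratios from -1.21 to -1.12. With 6 genes found by name alone, or without *Slc22a2*, settings chosen after seeing the data, medians moved by less than the error taken from the limits.

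The share of all measured records called in Dahl S over Dahl R was 6.68% with a pseudocount of 0.1, 0.994% with 5, 1.9% with a minimum mean of 5 FPKM, 1.69% when limits had to be apart and 2.48% with records of a locus summed. In Dahl S over SHR these shares were 8.0%, 1.51%, 2.99%, 2.6% and 3.35%. In SHR over Dahl R they were 7.09%, 1.2%, 2.65%, 2.59% and 2.95%. A larger pseudocount makes every ratio smaller in size, and limits apart are an added condition, so neither could raise the share. The cause of the changes with the minimum mean and with the summed records was not tested. No paired analysis was possible because each strain has 1 library, and for the same reason none could be left out.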
